A study of Mus musculus with 18 samples.

Results

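The brain and the spleen of newborn control mice were compared gene by gene, to describe how far the neural programme of the brain stands from the blood-forming, immune and stromal programmes of the spleen in 1 RNA sequencing series. The comparison uses 4 libraries of the 18 in the series: the control columns of the brain table (brain controls 1 and 2) and of the spleen table (spleen controls 1 and 2). All 4 came from female mice at postnatal day 1 that carry, per the labels, a heterozygous deletion of Xist, so these controls are not wild type, although their columns in the deposited tables are named WT. The sources used here give neither the strain nor the deleted part of Xist, nor whether a library holds 1 animal or several. The series describes its tissue replicates as biological. The series text names the heart where the labels name the brain, and the labels were followed. The libraries of the homozygous Xist deletion (2 of brain and 2 of spleen, same age and sex) were used to repeat the comparison and to test whether it changes with genotype. They also entered an alternative fit with the spread shared over 8 libraries, and their levels are given for a few genes. RNA was taken from homogenised whole organs, so for every gene below fewer cells of a type and less RNA per cell cannot be told apart.

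In the newborn brain most neurons have left the cell cycle and are extending axons and forming synapses, while astrocytes and oligodendrocytes are only starting to mature. In the mouse the newborn spleen is a blood-forming organ: it makes red cells, granulocytes and platelets, and it takes in B cells long before it looks like the adult immune organ. Both organs hold resident macrophages. Microglia, the macrophages of the brain, depend on the receptor Csf1r and its ligands Il34 and Csf1, and red pulp macrophages of the spleen depend on the transcription factor Spic and recycle iron from old red cells.

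Levels are given as CPM, the reads of a gene divided by all reads in genes of that library and multiplied by 1000000. The authors had normalized the brain and the spleen table separately, and dividing each column by its own sum removed that scaling before levels were set side by side. A difference is given as brain minus spleen on the scale of log2(CPM + 0.5) with its standard error, n = 2 libraries per organ. On that scale 1 unit is a factor of 2 and the differences of genes with few reads are understated. Genes with a mean of at least 1 CPM in either organ were tested with limma, two-sided, and a gene is called when its Benjamini-Hochberg adjusted p over all 18765 genes tested is under 0.05. Where values are set side by side, brain controls 1 and 2 come before spleen controls 1 and 2. The control libraries held 18747051 and 23090631 reads in genes in brain and 16228550 and 15932255 in spleen. A mean of 0.145 CPM in brain and 0.187 CPM in spleen corresponds to 3 reads in each library, which is what a count of 0 allows. A list's median difference is given a second time, where it differs, with genes that had no read in one organ placed at the ratio to that floor.

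The marker genes fit the organ on each label. Stmn2, a regulator of microtubules in growing axons, was at 1119.6 and 1023 CPM in brain controls 1 and 2 and at 1.97 and 2.45 CPM in spleen controls 1 and 2. Tubb3, the neuronal beta-tubulin, was at 2319 and 1999.7 CPM in brain and at 1.36 and 2.20 CPM in spleen. Both neuronal markers were far higher in each brain library than in either spleen library. Slc4a1, the anion exchanger band 3 of red cells, was at 6.61 and 2.43 CPM in brain and at 6738 and 2595 CPM in spleen. Cd79a, a signalling chain of the B cell receptor, was at 0.107 and 0.130 CPM in brain and at 20.95 and 102 CPM in spleen. The organs did not overlap for any of the 4 markers. Several genes of heart muscle were near 0 in the libraries labelled brain: Actc1 had no read in either, Myl7 was at 0.160 and 0 CPM, Nppa at 0.107 and 0.433 CPM and Tnnt2 at 0.320 and 0.260 CPM. Of the 12 heart genes listed only Ryr2, a calcium release channel that neurons also use, was above 10 CPM in brain, at 148 and 190.4 CPM. Of the 5 heart genes tested 3 were called higher in brain, namely Ryr2 and the heart myosin genes Myh7 and Myh6, whose levels are given below. Xist itself was at 650.1 and 689.7 CPM in brain and 1077 and 1179 CPM in spleen, a difference of -0.75 ± 0.19 (SE) with adjusted p = 0.0230 by limma and 0.0551 by edgeR. It was at 3.66, 4.16, 126 and 50.6 CPM in brain mutants 1 and 2 and spleen mutants 1 and 2.

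The 2 spleen libraries differed from each other far more than the 2 brain libraries did. Of the 18765 genes, 2797 (14.9%) differed at least 2-fold between spleen controls 1 and 2, against 329 (1.75%) between brain controls 1 and 2. Spleen control 1 carried more red cell and division transcripts: the summed level of the globin and haem list was 35702 CPM against 21449 CPM in spleen control 2, and that of the cell cycle list 13197 against 6061 CPM. Spleen control 2 carried more neutrophil transcripts, 14619 against 4134 CPM, and more B lineage transcripts, 2167 against 552 CPM. Spleen control 1 also held more pancreatic and hepatocyte transcripts than spleen control 2, and their source was not tested. Ctrb1, the pancreatic digestive enzyme precursor chymotrypsinogen B, was at 491 and 0.439 CPM in spleen controls 1 and 2, and Alb, the serum albumin made by hepatocytes, was at 171 and 3.58 CPM. All 12 pancreatic genes tested and all 9 hepatocyte genes tested were higher in spleen control 1 than in spleen control 2, with summed levels of 1083 against 11.4 CPM and 359 against 21.2 CPM. With all 4 libraries, 1 of 12 pancreatic and 2 of 9 hepatocyte genes were called higher in spleen, against 28.9% of all genes. The median differences of the 2 lists were -3.37 and -2.19. Without spleen control 2 they were -6.28 and -3.41. Without spleen control 1 they were 0.23 and -0.38, over the 3 pancreatic and 6 hepatocyte genes that then passed the filter on low values. Without brain control 1 they were -3.39 and -2.26, and without brain control 2 they were -3.35 and -2.10. The part of such transcripts in the other results was not tested.

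**Figure D1:**
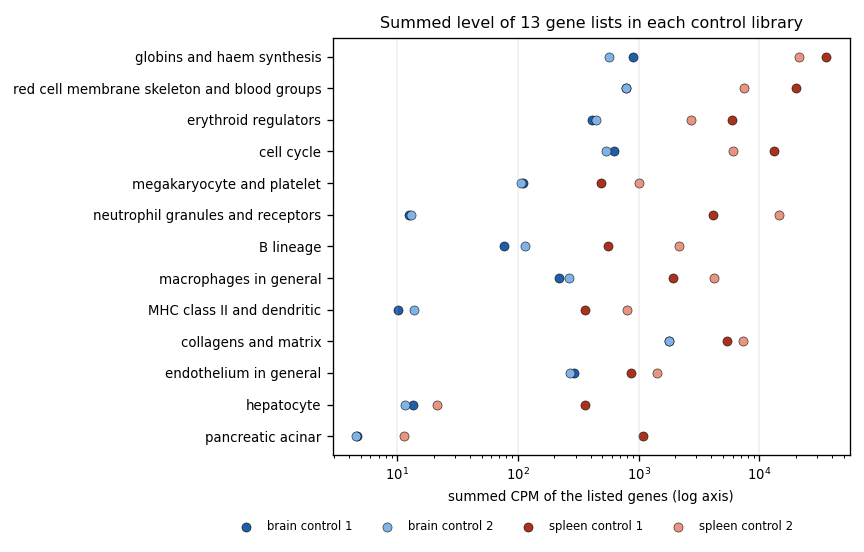
Summed CPM of the listed genes of 13 lists (log axis) in brain controls 1 and 2 (blues) and spleen controls 1 and 2 (reds), 1 point per library. The spleen points lie close together for collagens and apart for neutrophil, B lineage, hepatocyte and pancreatic genes. The pancreatic sum is 1083 CPM in spleen control 1 and 11.4 CPM in spleen control 2.

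Promoter sequences are shown for 4 genes that stand for the sides compared: Tubb3 for neurons, Cd79a for B cells, Spic for red pulp macrophages and P2ry12 for microglia. They come from RefSeq on GRCm38.p6, run 5′ to 3′ on the gene's strand, and cover 250 bases before to 50 after the start of the gene. Entries were found for part of each list, and shares below are of the members with an entry. Capitals mark matches, on either strand, to any of 4 short motifs: AGATAA (bound by GATA factors), GGAAGT (bound by ETS factors such as Spi1 and Spic), CAGCACC (part of the RE1 element bound by the repressor Rest) and CAGATG (an E-box bound by proneural factors). No 2 of these matches overlap. Stmn2 and Slc4a1 had no entry.
Tubb3 promoter, chr8:123411303-123411602, plus strand: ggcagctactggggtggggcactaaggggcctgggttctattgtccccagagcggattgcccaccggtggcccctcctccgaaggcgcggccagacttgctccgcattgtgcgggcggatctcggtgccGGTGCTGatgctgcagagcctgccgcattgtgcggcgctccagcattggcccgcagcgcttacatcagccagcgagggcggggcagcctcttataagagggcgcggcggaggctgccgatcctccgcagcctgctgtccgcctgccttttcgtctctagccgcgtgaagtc
Cd79a promoter, chr7:24897247-24897546, plus strand: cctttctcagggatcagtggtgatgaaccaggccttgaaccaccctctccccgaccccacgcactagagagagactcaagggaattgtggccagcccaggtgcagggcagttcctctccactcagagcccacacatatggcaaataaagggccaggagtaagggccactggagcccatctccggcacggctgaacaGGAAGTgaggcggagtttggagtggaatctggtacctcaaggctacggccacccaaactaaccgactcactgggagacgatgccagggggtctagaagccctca
Spic promoter, chr10:88682974-88683273, minus strand: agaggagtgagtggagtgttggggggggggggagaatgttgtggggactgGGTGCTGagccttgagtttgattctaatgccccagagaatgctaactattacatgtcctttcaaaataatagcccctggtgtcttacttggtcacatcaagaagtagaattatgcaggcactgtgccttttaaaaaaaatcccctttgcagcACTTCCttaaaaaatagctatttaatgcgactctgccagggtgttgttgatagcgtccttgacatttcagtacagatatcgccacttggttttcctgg
P2ry12 promoter, chr3:59262936-59263235, minus strand: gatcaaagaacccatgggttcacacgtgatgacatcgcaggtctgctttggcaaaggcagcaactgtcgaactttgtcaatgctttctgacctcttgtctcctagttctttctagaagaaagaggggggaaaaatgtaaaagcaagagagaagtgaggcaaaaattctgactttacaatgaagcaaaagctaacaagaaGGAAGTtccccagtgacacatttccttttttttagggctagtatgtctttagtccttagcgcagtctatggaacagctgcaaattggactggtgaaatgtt

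The Tubb3 promoter held 1 match, to the RE1 part on the opposite strand at position -121 from the start site, and 26 CG pairs. The Cd79a promoter held GGAAGT at position -54, P2ry12 held it at -51, and Spic held its reverse complement at -48 and an RE1 match at -200. These 3 promoters held 8, 4 and 3 CG pairs. Among the first listed promoters of 27025 genes, 24.1% held GGAAGT, 11.4% AGATAA, 17.2% CAGATG and 7.09% CAGCACC. The ETS motif GGAAGT was in 11 of 17 neutrophil promoters (64.7%) and in 11 of 27 promoters of the general and red pulp macrophage lists (40.7%), and in 6 of 15 B lineage promoters (40%). It was in 4 of 38 erythroid promoters, 3 of 48 of the synapse and channel lists (6.25%) and 1 of 15 of the neuronal cytoskeleton list (6.67%). AGATAA was in 11 of 38 erythroid promoters (28.9%). CAGCACC was in 5 of 15 promoters of the neuronal cytoskeleton list (33.3%), in 3 of 48 of the synapse and channel lists (6.25%) and in 6 of 27 of the macrophage lists (22.2%). CAGATG, the E-box of proneural factors, was in 2 of 48 promoters of the synapse and channel lists (4.17%), in 2 of 15 of the neuronal cytoskeleton list (13.3%) and in 6 of 15 of the B lineage list (40%). The median number of CG pairs was 23 in the neuronal cytoskeleton promoters, 18 in the synapse and channel promoters, 3 in the neutrophil promoters and 7 over all promoters. Rest, which keeps neuronal genes silent outside neurons and was named after its values were seen, was at 22.4 and 25.3 CPM in brain and at 101.2 and 145 CPM in spleen, a difference of -2.32 ± 0.25 (SE) with adjusted p = 0.00123 by limma. A match is a run of letters and does not show binding.

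Across all genes, 5610 of 18765 (29.9%) were called higher in brain and 5429 (28.9%) higher in spleen. The called genes that differed at least 4-fold numbered 3238 (17.3%) in brain and 2410 (12.8%) in spleen, and the median absolute difference of all genes was 1.14 on the log2 scale. The median difference of all genes was -0.08. Leaving out brain control 1 or brain control 2 lowered the count of calls from 11039 to 3423 or 3466, of which 2677 or 2565 were higher in brain, because the spread is then taken from the 2 spleen libraries alone. Leaving out spleen control 1 or 2 gave 11864 or 12673. Many of the tested genes named here also lost their call without brain control 1 or brain control 2. Counts for the lists without these libraries are given where they move by over 1.5 times, other than for the pancreatic and hepatocyte lists. These fits call fewer genes in both directions, so a lower list count is not by itself a smaller difference. The median of the cell cycle list was -3.86 with all 4 libraries, -3.91 without brain control 1 and -3.69 without brain control 2. In the mutant libraries 12502 genes (66.6%) were called between the organs. Of the 11039 genes called in controls, 10116 were called in the same direction in mutants and 6 in the other direction. The difference between organs did not pass the test for a change with genotype for any gene (limma interaction, smallest adjusted p = 0.139), and 923 genes (4.92%) had an unadjusted p under 0.05.

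**Figure D2:**
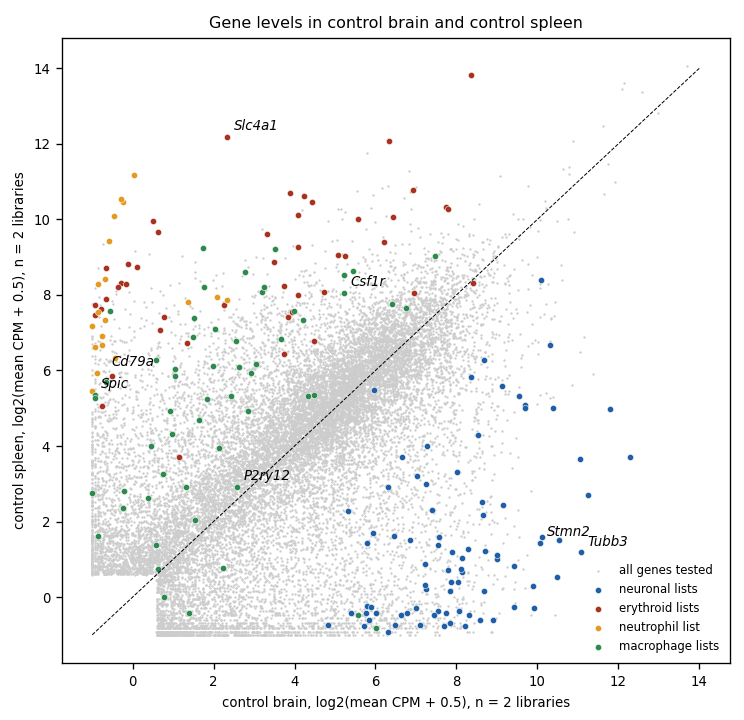
Level of each of the 18765 genes tested in control brain (horizontal) and control spleen (vertical), as log2(mean CPM + 0.5) of 2 libraries each. The members of 4 neuronal, 3 erythroid, 1 neutrophil and 3 macrophage lists are coloured and the dashed line marks equal levels. Stmn2 and Tubb3 lie far below the line, Slc4a1, Cd79a and Spic far above it, and P2ry12 close to it.

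The largest differences toward brain, among genes of at least 10 CPM there, included those of Ncan, Elavl3, Grin2b, Crmp1, Tubb3, Myt1l, Dcx, Kif5c and Lrrc4b. Ncan, the brain matrix proteoglycan neurocan, was at 1429 and 1358 CPM in brain and 0.185 and 0.251 CPM in spleen, a difference of 10.92 ± 0.20 (SE) with adjusted p = 8.00e-05 by limma. Elavl3, a neuronal RNA-binding protein, was at 941 and 900.0 CPM in brain and 0.308 and 0.126 CPM in spleen. Lrrc4b, a synaptic adhesion protein, was at 681 and 703 CPM in brain and 0.370 and 0.439 CPM in spleen. The largest differences toward spleen belonged to Ngp, S100a9, Mpo, Ltf, Slc4a1, Hemgn, S100a8, BC100530, Ermap and Kel. Ngp, S100a9, Mpo, Ltf and S100a8 belong to the neutrophil list, and Slc4a1, Ermap and Kel to the red cell membrane list. Hemgn, a nuclear protein of blood progenitors, was at 0.107 and 0.0866 CPM in brain and 1025 and 275 CPM in spleen. BC100530 was at 0.0533 and 0.0433 CPM in brain and 166 and 665 CPM in spleen. In each of the 10 largest differences on either side, the lower library of the higher organ exceeded the higher library of the other organ by a factor of more than 100 in CPM.

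The genes of the neuronal cytoskeleton and of axon growth were higher in brain without exception: 26 of 26 tested members were called, with a median difference of 8.35 against -0.08 over all genes. Dcx, the microtubule protein of migrating young neurons, was at 754 and 621 CPM in brain and 0.555 and 0.126 CPM in spleen, a difference of 9.72 ± 0.32 (SE). Crmp1, which relays semaphorin signals in growing axons, was at 1615 and 1267 CPM in brain and 0.924 and 0.941 CPM in spleen. Kif5c, a neuronal kinesin heavy chain that carries cargo along axons, was at 987 and 914 CPM in brain and 0.678 and 0.753 CPM in spleen. The adjusted p of Dcx, Crmp1 and Kif5c was 8.01e-05, 8.00e-05 and 8.00e-05 by limma, close to the smallest of any gene tested.

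The machinery of transmitter release was nearly as separated, with 19 of 19 members called higher in brain and a median difference of 7.07. Syt1, the calcium sensor of vesicle fusion, was at 495 and 466 CPM in brain and 0.123 and 0.188 CPM in spleen. Snap25, the neuronal SNARE of the plasma membrane, was at 189 and 226 CPM in brain and 0.123 and 0.0628 CPM in spleen. Syn1, which tethers synaptic vesicles, was at 187 and 186 CPM in brain and 0.246 and 0.314 CPM in spleen, and Syt4 was at 288 and 244 CPM against 0.123 and 0.439 CPM. The lowest difference in the list was 2.52, so every release gene was more than 4-fold higher in brain.

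Genes that make or take up transmitters were called higher in brain in 14 of 15 cases, with a median of 3.73, or 3.95 at the floor. Gad2, an enzyme of GABA synthesis, was at 124 and 128 CPM in brain and had no read in either spleen library, which makes it at least 676-fold higher in brain against the floor of 3 reads in each spleen library. Slc17a6, the vesicular glutamate transporter of subcortical neurons, was at 103 and 109.9 CPM in brain and 0.0616 and 0.0628 CPM in spleen. Slc32a1, the vesicular transporter of GABA and glycine, was at 82.6 and 114 CPM in brain and 0 and 0.377 CPM in spleen. The exception, named after its value was seen, was Slc6a4, the serotonin transporter that platelets and mast cells also use: it was at 12.4 and 19.6 CPM in brain and 16.1 and 26.6 CPM in spleen, overlapped between the organs and was not called (adjusted p = 0.390, limma).

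Receptors and channels were on the brain side with 1 exception. Of 20 transmitter receptors 19 were called higher in brain (median 6.79), and of 16 ion channels all 16 (median 6.27). Grin2b, the NMDA receptor subunit that prevails before and around birth, was at 1074 and 862 CPM in brain and 0.246 and 0.377 CPM in spleen, a difference of 10.22 ± 0.23 (SE) with adjusted p = 8.00e-05 by limma. Grin1, the subunit that all NMDA receptors share, was at 180.1 and 169 CPM in brain and 0.308 and 0.126 CPM in spleen. Gria1, an AMPA receptor subunit, was at 229.7 and 229 CPM against 0.308 and 0.941 CPM, and the metabotropic glutamate receptor Grm5 at 295 and 302 CPM against 0.123 and 0.0628 CPM. The receptor that was not called, named after its value was seen, was the AMPA subunit Gria3, at 69.2 and 55.2 CPM in brain and 29.2 and 58.9 CPM in spleen, with an overlap between the organs. Among channels, the sodium channel genes Scn2a and Scn3b were at 240.2 and 284 CPM and at 289 and 270.3 CPM in brain, and at 0.863 and 0.753 CPM and at 0.431 and 1.76 CPM in spleen. The calcium channel gene Cacna1b was at 257 and 296 CPM in brain and 0.739 and 1.63 CPM in spleen.

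Of 32 neural transcription factors 31 were called higher in brain, with a median of 5.93, or 6.51 at the floor. Myt1l, a zinc finger factor of neurons, was at 497 and 439 CPM in brain and had 1 read in the 2 spleen libraries. Zic1, a factor of the dorsal brain and cerebellum, was at 204 and 341 CPM in brain and 0.0616 and 0.0628 CPM in spleen. Pou3f3, a factor of upper cortical layers and other regions, was at 321 and 195 CPM in brain and 0.0616 and 0.0628 CPM in spleen. Neurod6, a factor of cortical excitatory neurons, was at 249 and 105 CPM in brain and had no read in spleen, at least 948-fold higher. Brain controls 1 and 2 differed by more than 1.5 times for Zic1, Pou3f3 and Neurod6, Zic1 being higher in brain control 2 and the other two in brain control 1. The neural noncoding RNAs were all called higher in brain, 11 of 11, with Snhg11 at 561 and 801 CPM against 0.185 and 1.13 CPM in spleen, Miat at 447 and 425 CPM against 1.48 and 0.502 CPM, and Mir124a-1hg, a host transcript of the neuronal microRNA miR-124, at 212 and 170.3 CPM against no read.

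Glial genes were split. Of 18 genes of radial glia and astrocytes, 14 were called higher in brain and 2 higher in spleen, with a median of 4.76. The glutamate transporters Slc1a3 and Slc1a2 were at 346 and 412 CPM and at 374 and 411 CPM in brain, and at 2.65 and 3.95 CPM and at 0.739 and 1.76 CPM in spleen. Ptprz1, a receptor phosphatase of radial glia, was at 727 and 658 CPM in brain and 0.616 and 1.004 CPM in spleen, and Ttyh1 at 245 and 365 CPM against 0.678 and 1.004 CPM. The 2 members called higher in spleen are not specific to glia: Vim, the intermediate filament vimentin of mesenchyme and blood cells as well, was at 170.3 and 233 CPM in brain and 531 and 950.0 CPM in spleen (difference -1.83 ± 0.35 (SE), adjusted p = 0.00799, limma). Hes1, the Notch target, was at 7.15 and 10.2 CPM in brain and 20.8 and 41.6 CPM in spleen (difference -1.73 ± 0.40 (SE), adjusted p = 0.0165, limma). Without brain control 1 or brain control 2 neither Vim nor Hes1 was called. Gfap, the astrocyte filament, named after its value was seen, was at 22.6 and 48.4 CPM in brain and 41.7 and 12.7 CPM in spleen, with an overlap.

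Of 12 oligodendrocyte lineage genes 9 were called higher in brain, and 5 without brain control 1 or brain control 2. The lineage factors Olig1 and Olig2 were at 64.8 and 98.9 CPM and at 39.6 and 44.5 CPM in brain and at no more than 0.188 CPM in spleen. Gpr17, of precursors about to differentiate, was at 27.4 and 31.2 CPM in brain and 0.185 and 0.502 CPM in spleen, and the adhesion protein Opcml at 279 and 237 CPM against 2.40 and 4.02 CPM. The myelin gene Mbp, named after its value was seen, was at 31.95 and 75.7 CPM in brain and 97.7 and 55.9 CPM in spleen and was not called. Neural adhesion and matrix genes were all called higher in brain, 16 of 16 (median 7.34), with Cntn1 at 439.5 and 536 CPM against 1.23 and 0.753 CPM, Cntn2 at 389.8 and 295 CPM against 0.308 and 0.251 CPM and the presynaptic adhesion gene Nrxn3 at 426 and 353 CPM against 0.493 and 0.251 CPM. Choroid plexus genes, which mark the tissue that makes cerebrospinal fluid, were called higher in brain in 7 of 10 cases, and in 4 without brain control 2. Ttr, the thyroid hormone carrier transthyretin, was at 129 and 768 CPM in brain controls 1 and 2 and 6.53 and 0.126 CPM in spleen controls 1 and 2. The summed level of the choroid plexus list was 198 CPM in brain control 1 and 928 CPM in brain control 2.

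The signals that guide and feed neurons were also mostly higher in brain. Of 15 ligands, 13 were called higher in brain and 2 in spleen (median 2.51), and without brain control 1 or 2 the brain counts were 7 and 8 and the spleen count 0. Slit1 and Slit2, repellents of growing axons, were at 144 and 154 CPM and at 89.2 and 95.5 CPM in brain and at 1.23 and 1.26 CPM and at 30.4 and 44.9 CPM in spleen. Their relative Slit3 went the other way, at 23.9 and 26.8 CPM in brain and 66.9 and 110.5 CPM in spleen, a difference of -1.75 ± 0.30 (SE) with adjusted p = 0.00548 by limma. Bdnf, the neurotrophin of the receptor Ntrk2, was at 9.12 and 9.27 CPM in brain and 0.185 and 0 CPM in spleen. Nxph1, a secreted ligand of neurexins, was at 100.6 and 93.3 CPM in brain and had no read in spleen, at least 519.7-fold higher. Netrin-1 (Ntn1) was at 53.4 and 83.02 CPM against 4.93 and 5.40 CPM, and the ephrin gene Efnb3 at 342 and 327 CPM against 7.58 and 11.6 CPM.

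Of 16 receptors of these signals, 13 were called higher in brain and none in spleen, and 8 without brain control 1 or brain control 2. Dcc, the netrin receptor, was at 150.3 and 164 CPM in brain and 0.123 and 0.251 CPM in spleen, a difference of 7.85 ± 0.25 (SE) with adjusted p = 8.00e-05 by limma. The netrin receptors Unc5a and Unc5d were at 85.5 and 82.5 CPM and at 76.4 and 80.6 CPM in brain and below 0.4 CPM in spleen. The Slit receptors Robo1 and Robo2 were also present in spleen, at 38.9 and 75.3 CPM and at 106 and 141 CPM, against 448 and 394 CPM and 527 and 427 CPM in brain. Ngfr, the low-affinity neurotrophin receptor, Nrp1, the neuropilin that endothelium also uses, and Fgfr1 were the 3 receptors not called, with differences of 0.24 ± 0.48 (SE), 0.62 ± 0.35 (SE) and 0.50 ± 0.32 (SE).

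Of the 43 lists, that of globins and haem synthesis had the highest summed level in both spleen libraries. All 15 genes of globins and haem synthesis tested were called higher in spleen (median -4.69), as were 16 of 17 genes of the red cell membrane and blood groups (median -6.26) and all 14 erythroid regulators (median -6.36). The counts were 6, 9 and 9 without brain control 1, and without brain control 2 they were 5, 9 and 9. The members of these lists were 1.19 to 1.56 log2 units higher in spleen control 1 than in spleen control 2 at the median. Alas2, the rate-limiting enzyme of haem synthesis in red cells, was at 20.6 and 12.4 CPM in brain and 1299 and 938 CPM in spleen. Slc25a37, the mitochondrial iron importer mitoferrin, was at 17.8 and 11.1 CPM in brain and 2452 and 886 CPM in spleen. The adult globin genes Hba-a2 and Hbb-bt were at 24.4 and 12.1 CPM and at 27.8 and 14.2 CPM in brain and at 1890.1 and 1281 CPM and at 1981 and 846 CPM in spleen. Their near-identical copies can share reads, so the split between copies is uncertain.

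Of the membrane genes, Slc4a1 differed by -9.84 ± 0.61 (SE) with adjusted p = 2.43e-04 by limma. The blood group genes Kel and Ermap were at 634 and 204 CPM and at 1507 and 476 CPM in spleen and below 1 CPM in brain. Klf1, the factor that drives globin transcription, was at 0.373 and 0.260 CPM in brain and 507 and 125 CPM in spleen, a difference of -8.28 ± 0.67 (SE) with adjusted p = 5.33e-04 by limma. Gfi1b, a repressor needed for red cells and platelets, was at 337 and 90.6 CPM in spleen and had 1 read in the 2 brain libraries. Nfe2 was at 0.373 and 0.173 CPM in brain and 363 and 226 CPM in spleen, and Trim10 at 0.693 and 0.0866 CPM against 461 and 167 CPM. Add2, beta-adducin of the membrane skeleton, which neurons also make, was the member not called: it was at 354 and 326 CPM in brain and 485 and 148 CPM in spleen and was named after its values were seen. Slc4a1, Alas2, Hba-a2 and Hbb-bt, at low levels in brain, were all lower in brain control 2 than in brain control 1.

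Genes of dividing cells were called higher in spleen in 25 of 27 cases, with a median of -3.86, and in 6 without brain control 1 or brain control 2. Mki67, the proliferation antigen, was at 63.3 and 45.8 CPM in brain and 4946 and 1981 CPM in spleen, a difference of -5.85 ± 0.47 (SE) with adjusted p = 5.26e-04 by limma. E2f2, a factor of S phase entry, was at 7.68 and 9.70 CPM in brain and 1124 and 601 CPM in spleen. Ccnb2, a mitotic cyclin, was at 6.83 and 5.20 CPM in brain and 219 and 124 CPM in spleen, and Birc5, the survivin of the mitotic spindle, at 6.13 and 3.98 CPM against 229 and 84.6 CPM. The 2 members not called, named after their values were seen, were the D cyclins Ccnd1, at 31.2 and 48.3 CPM in brain and 25.4 and 31.5 CPM in spleen, and Ccnd2, at 176 and 109 CPM against 68.1 and 139 CPM. Both overlapped between the organs. The division genes moved with the red cell genes between the spleen libraries, 25 of 27 being higher in spleen control 1, and the part of red cell precursors in the difference between organs was not tested.

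Neutrophil genes gave the list median farthest toward spleen, with 19 of 19 called and a median of -7.74, or -8.21 at the floor, and 11 or 12 called without brain control 1 or brain control 2. Mpo, the myeloperoxidase of primary granules, was at 0.427 and 0.260 CPM in brain and 639.9 and 2200.1 CPM in spleen. Ltf, lactoferrin, and Ngp, both of secondary granules, were at 448 and 1744 CPM and at 846 and 3811 CPM in spleen and below 1 CPM in brain. S100a9, the calprotectin subunit, was at 0.213 and 0.433 CPM in brain and 756 and 2203 CPM in spleen, a difference of -10.63 ± 0.53 (SE) with adjusted p = 1.39e-04 by limma, and its partner S100a8 was at 308 and 1081 CPM in spleen. All 19 genes were higher in spleen control 2 than in spleen control 1.

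Platelet, mast cell and eosinophil genes were on the spleen side as well. Of 16 megakaryocyte and platelet genes 13 were called higher in spleen (median -4.53), 3 without brain control 1 and 4 without brain control 2. Itgb3, the integrin subunit of the fibrinogen receptor, was at 3.68 and 3.94 CPM in brain and 84.3 and 245 CPM in spleen. The chemokine gene Ppbp was at 23.05 and 55.6 CPM in spleen with 1 read in the 2 brain libraries, and Gp9 was at 0 and 0.0866 CPM in brain and 16.7 and 23.2 CPM in spleen. All 9 mast cell, basophil and eosinophil genes were called (median -4.98, or -5.26 at the floor). The mast cell proteases Cpa3 and Cma1 were at 99.9 and 64.7 CPM and at 87.4 and 56.4 CPM in spleen and at no more than 0.533 CPM in brain. The eosinophil granule gene Prg2 was at 66.7 and 170.3 CPM in spleen and had no read in brain, at least 817-fold higher, and Epx was at 0.427 and 0.0866 CPM in brain and 18.5 and 41.7 CPM in spleen.

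Lymphoid genes were present in spleen at modest levels. Of 20 B lineage genes 18 were called higher in spleen (median -5.17, or -5.35 at the floor), 2 without brain control 1 and 3 without brain control 2. Ighm, the heavy chain of IgM, was at 1.71 and 1.95 CPM in brain and 212 and 834 CPM in spleen, a difference of -7.50 ± 0.65 (SE) with adjusted p = 6.43e-04 by limma. Cd79b, a part of the B cell receptor complex, was at 0.107 and 0.0866 CPM in brain and 23.4 and 103 CPM in spleen. Igkc, the kappa light chain, was at 0.0533 and 0.0866 CPM in brain and 34.8 and 181 CPM in spleen. The factor Ebf1, named after its values were seen, was at 57.7 and 85.3 CPM in brain and 34.1 and 116 CPM in spleen and was not called, while Pax5, named likewise, was at 12.2 and 22.1 CPM in brain and 40.4 and 144 CPM in spleen (difference -2.19 ± 0.66 (SE), adjusted p = 0.0362, limma, and 0.0753 without spleen control 2). Both factors also act in parts of the developing brain.

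T and NK genes were lower still. Of 14 tested, 11 were called higher in spleen, and 3 without brain control 1 or brain control 2. Il7r, the receptor of lymphoid progenitors and T cells, was at 0.0533 and 0.0433 CPM in brain and 14.05 and 39.8 CPM in spleen. Cd4, the T helper coreceptor, was at 0.320 and 0.476 CPM against 4.62 and 11.9 CPM, and the cytokine receptor gene Il2rb at 0.0533 and 0.346 CPM against 4.81 and 11.4 CPM. The cytotoxic granule gene Nkg7 had no read in brain and was at 2.83 and 5.46 CPM in spleen. All 4 were higher in spleen control 2 than in spleen control 1. Antigen presentation genes were on the spleen side: 12 of 13 class II and dendritic genes (median -4.87) and 10 of 10 class I genes (median -4.13) were called. The counts were 5 and 4 without brain control 1, and without brain control 2 they were 7 and 5. Cd74, the class II invariant chain, was at 0.587 and 0.823 CPM in brain and 139 and 314 CPM in spleen, and the class II genes H2-Aa, H2-Ab1 and H2-Eb1 were at 35.2 and 64.7 CPM, 39.01 and 63.1 CPM and 24.6 and 42.9 CPM in spleen and below 0.5 CPM in brain. The peptide transporter Tap2 was at 1.07 and 1.95 CPM in brain and 30.99 and 46.3 CPM in spleen, the immunoproteasome genes Psmb8 and Psmb9 at 0.587 and 1.13 CPM and 0.160 and 0.217 CPM in brain and at 20.5 and 50.7 CPM and 10.2 and 24.7 CPM in spleen.

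Of 12 stem and progenitor genes 9 were called higher in spleen and 1 higher in brain, and without brain control 1 or brain control 2 the counts were 3 and 0. Myb, needed for definitive blood formation, was at 8.21 and 7.88 CPM in brain and 209 and 337 CPM in spleen. Runx1, a factor without which no blood stem cells form, was at 3.36 and 2.38 CPM in brain and 111 and 160.5 CPM in spleen. The homeobox gene Hhex was at 1.65 and 0.909 CPM against 18.98 and 42.9 CPM, and the surface gene Cd48 at 0.0533 and 0.173 CPM against 13.2 and 22.8 CPM. Hlf, a marker of blood stem cells that is also a clock-related factor of neurons, was the member called higher in brain, at 27.6 and 24.3 CPM in brain and 7.09 and 13.9 CPM in spleen (difference 1.34 ± 0.37 (SE), adjusted p = 0.0274, limma, and 0.0507 with no filter on low values).

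Genes of the general macrophage list were higher in spleen, and the part of other blood cells in these differences was not tested. Of 22 genes 20 were called, none higher in brain (median -3.45), and 7 without brain control 1 or 11 without brain control 2 were called higher in spleen. All 22 were higher in spleen control 2 than in spleen control 1. Csf1r, the growth factor receptor of macrophages, was at 30.9 and 42.8 CPM in brain and 172 and 361 CPM in spleen, a difference of -2.76 ± 0.40 (SE) with adjusted p = 0.00341 by limma. Spi1, the factor PU.1, was at 1.97 and 2.73 CPM in brain and 89.7 and 243 CPM in spleen. The complement genes C1qa, C1qb and C1qc were at 9.28 and 14.9 CPM, 12.6 and 18.1 CPM and 14.1 and 21.8 CPM in brain and at 91.2 and 137 CPM, 151 and 230.5 CPM and 104 and 219 CPM in spleen. Itgam and Lyz2, which neutrophils also express, had the widest gaps, with Itgam at 1.87 and 3.94 CPM in brain and 164 and 422 CPM in spleen, and Lyz2 at 2.24 and 3.46 CPM against 325 and 894 CPM.

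The remaining general genes fell between these. Adgre1, the F4/80 antigen, was at 3.25 and 3.68 CPM in brain and 46.6 and 92.6 CPM in spleen. The adaptor genes Tyrobp and Fcer1g were at 3.73 and 3.42 CPM and at 2.19 and 2.47 CPM in brain and at 86.6 and 189 CPM and at 71.8 and 164 CPM in spleen. The Fc receptor genes Fcgr1 and Fcgr3 differed by -3.42 ± 0.46 (SE) and -4.19 ± 0.39 (SE). The phagocytic receptor Mertk differed by -2.91 ± 0.45 (SE), the lysosomal genes Cd68, Ctss and Laptm5 by -2.83 ± 0.36 (SE), -3.48 ± 0.37 (SE) and -4.71 ± 0.46 (SE), and Aif1, Cd14 and Cd53 by -2.47 ± 0.50 (SE), -2.24 ± 0.27 (SE) and -5.55 ± 0.48 (SE). The factor Maf differed by -1.31 ± 0.28 (SE), at 82.5 and 85.97 CPM in brain and 164 and 269 CPM in spleen. Trem2, a lipid receptor of microglia and other macrophages, was not called, at 1.97 and 2.81 CPM in brain and 2.77 and 4.46 CPM in spleen, with an overlap.

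**Figure D3:**
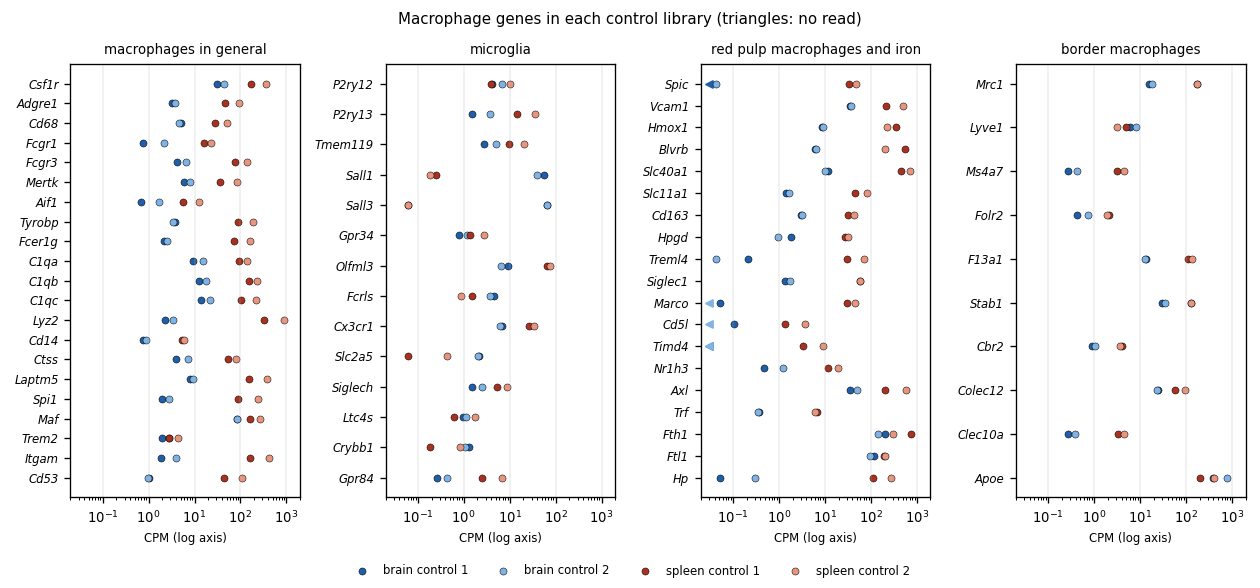
CPM (log axis) of members of 4 macrophage lists in brain controls 1 and 2 (blues) and spleen controls 1 and 2 (reds), 1 point per library, with triangles for no read. The general and red pulp genes lie to the right in spleen, the microglia genes are mixed, and Sall1 and Sall3 are the widest gaps toward brain.

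Genes named for microglia did not lie on the brain side as a list. Of 15 tested, 4 were called higher in brain, 6 higher in spleen and 5 not at all, with a median of -0.75. Over all genes 29.9% and 28.9% were called, so 4 of 15 is near the background and 6 of 15 not far above it, and the list as a whole gives no result. Without brain control 1 or brain control 2 the counts were 2 in brain and 1 in spleen. The 4 higher in brain were Sall1, Sall3, Fcrls and Slc2a5. Sall1, a factor that keeps microglia identity and is also made by neural progenitors, was at 55.6 and 38.5 CPM in brain and 0.246 and 0.188 CPM in spleen, a difference of 6.03 ± 0.30 (SE) with adjusted p = 1.40e-04 by limma. Sall3, its relative in neural cells, was at 63.6 and 65.6 CPM in brain and 0.0616 and 0.0628 CPM in spleen. Fcrls, an Fc receptor-like gene of microglia, was at 4.59 and 3.81 CPM in brain and 1.54 and 0.879 CPM in spleen (difference 1.48 ± 0.32 (SE), adjusted p = 0.0129, limma). Slc2a5, a fructose transporter, was at 2.19 and 2.08 CPM in brain and 0.0616 and 0.439 CPM in spleen (difference 1.86 ± 0.34 (SE), adjusted p = 0.00750, limma). For all 4 both brain libraries lay above both spleen libraries. Sall1 and Sall3 had the wide gaps, and Fcrls and Slc2a5 were below 5 CPM in every library.

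The purinergic receptor gene P2ry12, a standard microglia marker that platelets also express, was at 4.21 and 6.71 CPM in brain and 4.01 and 10.2 CPM in spleen, overlapped and was not called (difference -0.25 ± 0.50 (SE), adjusted p = 0.688, limma). Gpr34, a receptor for a lysophospholipid, was at 0.800 and 1.17 CPM in brain and 1.36 and 2.82 CPM in spleen. It was not called, nor were Ltc4s, which makes leukotriene C4, at 0.960 and 1.13 CPM against 0.616 and 1.76 CPM, and the crystallin gene Crybb1, at 1.33 and 1.08 CPM against 0.185 and 0.816 CPM. The 6 members higher in spleen were Cx3cr1, Tmem119, P2ry13, Olfml3, Siglech and Gpr84. Cx3cr1, the fractalkine receptor of microglia and monocytes, was at 6.99 and 6.32 CPM in brain and 25.8 and 33.6 CPM in spleen. Tmem119, a membrane protein used as a microglia marker, was at 2.77 and 4.98 CPM in brain and 9.86 and 20.1 CPM in spleen. P2ry13, a neighbour and relative of P2ry12, was at 1.55 and 3.68 CPM against 14.4 and 36.1 CPM. Olfml3, a secreted matrix protein that stroma also makes, was at 9.12 and 6.45 CPM against 66.7 and 75.3 CPM. Without spleen control 2 the adjusted p of Tmem119 was 0.0727 by limma. In all of these both spleen libraries were higher than both brain libraries. Siglech, which plasmacytoid dendritic cells share, was at 1.55 and 2.47 CPM against 5.30 and 8.72 CPM, and Gpr84, which neutrophils share, at 0.267 and 0.433 CPM against 2.46 and 6.78 CPM.

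A ratio to Csf1r within each library was added after the values were seen. On it P2ry12 stood at 13.6% and 15.7% of the Csf1r level in brain and at 2.33% and 2.82% in spleen. Trem2 stood at 6.39% and 6.57% in brain and at 1.62% and 1.24% in spleen. By this ratio 11 of 15 microglia genes were higher in both brain libraries than in both spleen libraries. The same holds for 83.4% of all genes tested, since Csf1r itself is higher in spleen, so the count of 11 is no result about microglia genes. In the mutant libraries the share of all genes was 86.4%. Of 10 border macrophage genes 6 were higher in both brain libraries and 2 in both spleen libraries by this ratio. In the mutant libraries 5 of these 6 and 0 of these 2 kept that order. Of 21 general macrophage genes 15 were higher in both spleen libraries by it, 3 in both brain libraries and 3 in neither. Of these 15, 11 were also higher in both spleen libraries among the mutants. Of 19 red pulp and iron genes, 17 were higher in both spleen libraries by this ratio, against 8.12% of all genes, and 16 of these 17 also in the mutant libraries, where the share of all genes was 7.7%.

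Red pulp and iron genes were all called higher in spleen, 19 of 19, with a median of -4.04, or -4.80 at the floor, and 11 or 12 without brain control 1 or brain control 2. Spic was at 33.8 and 47.5 CPM in spleen and had 1 read in the 2 brain libraries, a ratio of 1877 with a 95% counting interval from 304 to 67105. Its promoter, shown above, holds the ETS motif that 24.1% of promoters hold. Slc40a1, the iron exporter ferroportin, was at 11.9 and 9.96 CPM in brain and 454 and 728 CPM in spleen, a difference of -5.66 ± 0.29 (SE) with adjusted p = 1.42e-04 by limma. Hmox1, which breaks down haem, was at 8.59 and 9.35 CPM in brain and 362 and 232 CPM in spleen, and Blvrb, a biliverdin reductase that red cells also hold, at 6.24 and 6.50 CPM against 572 and 203 CPM. The scavenger receptors Marco and Cd163 were at 30.9 and 45.1 CPM and at 32.1 and 43.3 CPM in spleen and at 0.0533 and 0 CPM and at 3.04 and 3.16 CPM in brain.

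The rest of the list followed the same direction. Vcam1, an adhesion molecule of stroma and of splenic macrophages, was at 35.6 and 38.2 CPM in brain and 215 and 516 CPM in spleen. Axl, a receptor for dying cells, was at 34.99 and 50.6 CPM against 208 and 578 CPM. Siglec1, the sialoadhesin of marginal zone macrophages, was at 1.39 and 1.78 CPM against 57.5 and 57.1 CPM. Treml4, Slc11a1, the phagosomal metal transporter, and Hp, haptoglobin, were below 2 CPM in brain. In spleen Treml4 was at 30.2 and 71.7 CPM, Slc11a1 at 46.2 and 83.2 CPM and Hp at 112 and 269.8 CPM. Timd4, a receptor for dying cells, had no read in brain and was at 3.39 and 9.10 CPM in spleen, at least 43.1-fold higher. Cd5l, a secreted macrophage protein, was at 0.107 and 0 CPM in brain and 1.36 and 3.77 CPM in spleen. Nr1h3, a sterol sensor needed for marginal zone macrophages, differed by -3.57 ± 0.43 (SE) and Hpgd by -4.04 ± 0.34 (SE). Transferrin (Trf), which the hepatocyte list also holds, differed by -3.04 ± 0.26 (SE). The ferritin genes had the smallest differences: Fth1 was at 209 and 143 CPM in brain and 736 and 308 CPM in spleen (difference -1.46 ± 0.46 (SE), adjusted p = 0.0431, limma, and 0.0568 with TMM scaling), and Ftl1 at 117 and 97.3 CPM against 198 and 200.4 CPM (difference -0.90 ± 0.19 (SE), adjusted p = 0.0122, limma). Ferritin genes have many near-identical copies in the genome, so their values are uncertain.

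Border macrophages sit in the meninges and around vessels of the brain, and most of their genes were higher in spleen as well: 8 of 10 were called higher in spleen and none in brain, 3 without brain control 1 and 5 without brain control 2. Both spleen libraries exceeded both brain libraries for all 8. The mannose receptor Mrc1 was at 15.8 and 17.97 CPM in brain and 176 and 175 CPM in spleen, a difference of -3.34 ± 0.19 (SE) with adjusted p = 1.92e-04 by limma. F13a1 was at 13.5 and 12.8 CPM in brain and 109 and 138 CPM in spleen, and Stab1, which sinusoidal endothelium shares, at 29.6 and 34.6 CPM against 130.0 and 128 CPM. Colec12, Cbr2, Folr2, Ms4a7 and Clec10a differed by -1.62 ± 0.30 (SE), -1.58 ± 0.27 (SE), -1.22 ± 0.29 (SE), -2.35 ± 0.31 (SE) and -2.39 ± 0.29 (SE). Lyve1 and Apoe were not called: Lyve1 was at 6.19 and 8.40 CPM in brain and 4.93 and 3.20 CPM in spleen, and Apoe, which astrocytes also make, at 385 and 793 CPM against 202 and 419.8 CPM.

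The growth factors that keep macrophages alive were divided between the organs. Il34, the neuronal ligand of Csf1r, was at 5.76 and 5.37 CPM in brain and 1.54 and 2.82 CPM in spleen (difference 1.22 ± 0.34 (SE), adjusted p = 0.0292, limma). Without spleen control 1 the adjusted p of Il34 was 0.0526 by limma. Csf1, the other ligand, was at 22.7 and 28.2 CPM in brain and 143 and 219.8 CPM in spleen (difference -2.78 ± 0.28 (SE), adjusted p = 0.00103, limma). Cx3cl1, the ligand of Cx3cr1, was at 153 and 166 CPM in brain and 2.34 and 2.45 CPM in spleen, while its receptor was higher in spleen, as given above. Tgfb2 was at 33.8 and 36.9 CPM in brain and 5.79 and 9.35 CPM in spleen, and Tgfb1 at 1.97 and 1.60 CPM against 51.02 and 94.4 CPM. So Il34, Cx3cl1 and Tgfb2 lay on the brain side, and Csf1 and Tgfb1, which share receptors with Il34 and Tgfb2, lay on the spleen side.

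Among the blood growth signals, ligands lay on both sides and receptors mostly on the spleen side. Cxcl12, the chemokine that retains blood progenitors, was at 57.4 and 50.9 CPM in brain and 628 and 1075 CPM in spleen, and its receptor Cxcr4 at 31.5 and 26.2 CPM against 74.8 and 170.2 CPM. Kitl, the stem cell factor, was at 112 and 88.997 CPM in brain and 66.1 and 90.1 CPM in spleen and was not called, and its receptor Kit was at 103 and 119 CPM against 221 and 251 CPM (difference -1.09 ± 0.19 (SE), adjusted p = 0.00652, limma). Thpo, thrombopoietin, was at 1.39 and 2.34 CPM in brain and 0.246 and 0.314 CPM in spleen. Epor, the erythropoietin receptor, was at 1.33 and 1.08 CPM in brain and 249 and 90.01 CPM in spleen, while Epo had no read in any of the 4 libraries. Tnfsf13b, the B cell survival factor BAFF, was at 0.907 and 0.736 CPM against 2.03 and 3.64 CPM, and its receptor Tnfrsf13c at 0.747 and 0.217 CPM against 13.2 and 29.8 CPM. Csf2, Csf3, Il7 and Tnfsf11 did not reach 1 CPM in the mean of either organ. Of 9 ligands tested 4 were called in each direction, where 29.9% of all genes were called higher in brain and 28.9% in spleen, and of 15 receptors 13 were called higher in spleen. Without brain control 1 the counts were 2 and 2 ligands and 3 receptors, and without brain control 2 they were 2 in brain, 3 in spleen and 3 receptors. The receptors Csf2rb, Csf3r, Flt3, Tgfbr2 and Tnfrsf11a were among the 13 with differences of -6.24 ± 0.34 (SE), -6.35 ± 0.46 (SE), -2.41 ± 0.40 (SE), -2.61 ± 0.41 (SE) and -1.11 ± 0.33 (SE), and Tgfbr1 and Csf2ra were not called, with differences of -0.16 ± 0.36 (SE) and -1.56 ± 0.54 (SE).

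Stromal genes were higher in spleen too. Of 20 collagen and matrix genes 15 were called higher in spleen (median -1.78) and 5 were not called, with 4 called without brain control 1 and 3 without brain control 2. Col5a1, a fibrillar collagen, was at 45.3 and 61.5 CPM in brain and 399.9 and 548 CPM in spleen. Col6a3, of microfibrils, was at 33.6 and 29.6 CPM against 167 and 195 CPM. The crosslinking enzyme Lox was at 12.5 and 10.9 CPM against 115 and 148 CPM, and the gelatinase Mmp2 at 14.8 and 19.6 CPM against 128 and 298 CPM. All 4 were above 10 CPM in both brain libraries too. Of 16 genes of spleen mesenchyme and stromal chemokines 12 were called higher in spleen and 1 higher in brain, with 6 and 9 called higher in spleen without brain controls 1 and 2. Tlx1, the factor without which no spleen forms, was at 0 and 0.780 CPM in brain and 72.2 and 142 CPM in spleen. Nkx2-5, Tcf21 and Nkx3-2, also of the spleen anlage, were at 29.5 and 61.4 CPM, 54.96 and 166 CPM and 12.5 and 23.9 CPM in spleen and below 1 CPM in brain.

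General and sinusoidal endothelial genes were higher in spleen, and those of blood-brain barrier endothelium lay on both sides. Of 14 general endothelial genes 13 were called higher in spleen (median -1.86), and none without brain control 1 or brain control 2. Pecam1, the junction protein CD31, was at 26.2 and 26.4 CPM in brain and 104 and 189 CPM in spleen. Eng, endoglin, was at 27.9 and 27.02 CPM against 153 and 249 CPM. The endothelial factors Erg and Sox18 were at 4.32 and 3.33 CPM and at 4.53 and 5.63 CPM in brain and at 21.9 and 46.9 CPM and at 17.99 and 41.1 CPM in spleen. The organs did not overlap for any of these 4 genes. Sinusoidal endothelium, the leaky lining of spleen and liver vessels, had 8 of 9 genes called higher in spleen, 5 without brain control 1 or brain control 2. Stab2, its scavenger receptor, was at 0.267 and 0.823 CPM in brain and 376 and 765 CPM in spleen, a difference of -9.06 ± 0.45 (SE) with adjusted p = 1.38e-04 by limma. Plvap, of fenestrated vessels, was at 9.23 and 10.9 CPM against 78.1 and 185 CPM. Fcgr2b, the inhibitory Fc receptor that B cells share, was at 1.01 and 1.04 CPM against 16.7 and 37.9 CPM, and Oit3 at 0.160 and 0.0866 CPM against 35.2 and 56.5 CPM.

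Of 11 genes of blood-brain barrier endothelium 5 were called higher in brain, 1 in spleen and 5 not at all, where 29.9% and 28.9% of all genes were called. The summed level of the list was 336 and 356 CPM in brain and 646 and 390.0 CPM in spleen. Without spleen control 2 the count in spleen was 3, and without brain control 1 or brain control 2 it was 0. Slco1c1, the thyroxine transporter, was at 45.2 and 53.2 CPM in brain and 0.308 and 0.126 CPM in spleen, and Mfsd2a, the lipid transporter that limits transcytosis, at 22.7 and 22.04 CPM against 0.555 and 0.565 CPM. Foxq1, a transcription factor, was at 11.04 and 10.1 CPM in brain and 0 and 0.126 CPM in spleen. Slc16a1, a lactate transporter that red cell precursors also use, was the member higher in spleen, at 34.4 and 49.9 CPM in brain and 265 and 175 CPM in spleen. Of 12 smooth muscle and pericyte genes 10 were called higher in spleen and 1 higher in brain, and 5 higher in spleen without brain control 1 or brain control 2. The contractile genes Acta2 and Tagln were at 3.68 and 7.88 CPM and at 2.45 and 2.73 CPM in brain and at 168 and 152 CPM and at 121 and 132 CPM in spleen. Des, desmin, was at 1.49 and 1.52 CPM against 52.3 and 70.5 CPM. Rgs5, a marker of brain pericytes, went the other way, at 60.4 and 33.7 CPM in brain and 2.03 and 2.51 CPM in spleen (difference 4.05 ± 0.36 (SE), adjusted p = 6.81e-04, limma). Of 10 genes of mesothelium and capsule 7 were called higher in spleen, with 3 and 4 called without brain controls 1 and 2. Wt1, a factor of mesothelium needed for the spleen, was at 0.160 and 0.303 CPM in brain and 58.5 and 119.7 CPM in spleen. The surface genes Upk3b and Msln were at 38.7 and 48.02 CPM and at 23.8 and 29.2 CPM in spleen and below 1 CPM in brain. Gpm6a, also a membrane protein of axons, was the member called higher in brain, at 527 and 420.3 CPM against 5.48 and 10.6 CPM.

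**Figure D4:**
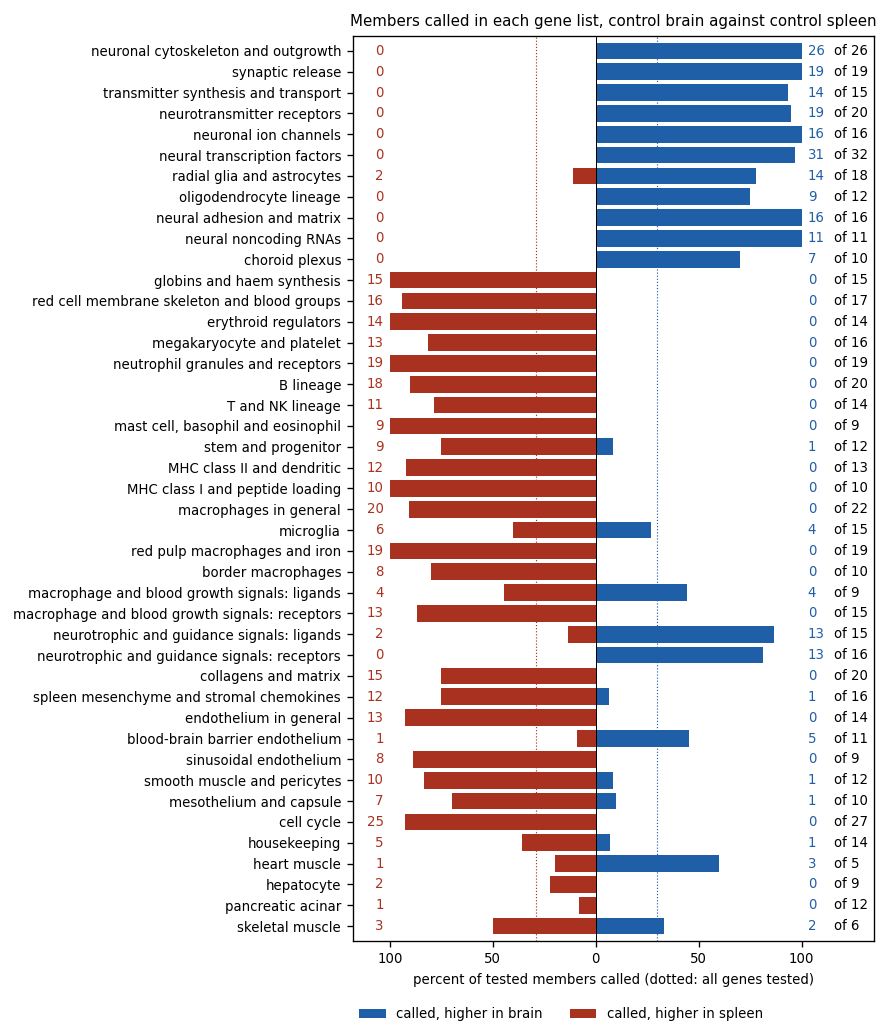
Percent of tested members of each of 43 gene lists called higher in control brain (blue, to the right) or in control spleen (red, to the left), limma adjusted p under 0.05, with the counts at the sides. Dotted lines mark the 29.9% and 28.9% of all genes tested. Neural lists fill the right side, blood and stromal lists the left side, and the microglia, growth signal ligand, blood-brain barrier, housekeeping and muscle lists lie on both.

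Pairs of related genes gave the same contrast within families. In 26 pairs of paralogues, each of a gene known from neurons and one known from blood or other cells, the neural gene was called higher in brain in 26 pairs and the other gene higher in spleen in 22. These pairs were chosen for their known tissue use, so the directions are a description. Levels per kb of exon, taken over all annotated exons of a gene, allow a rough comparison between genes. On that scale the gene with the higher level changed between the organs in 23 pairs. The length of the transcripts present is not known here, so ratios near 1 do not settle which gene leads. An example is Dnm1 over Dnm2, 2 dynamin genes, at 1.05 and 1.05 in brain and 0.0264 and 0.0657 in spleen. The ratio of neuronal ankyrin Ank2 to red cell ankyrin Ank1 was 7.22 and 5.18 in brain and 0.0131 and 0.0162 in spleen.

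Tubulin, tropomodulin and secretion genes changed in the same way. Tubb3 was at 1156 CPM per kb in brain and 0.951 in spleen, and Tubb1, the beta-tubulin of platelets, at 0.114 and 53.7 CPM per kb. Tmod2 and Tmod1, which cap actin in neurons and in red cells, had a ratio of 137 and 126 in brain and 0.00270 and 0.00656 in spleen. For Unc13a and Unc13d, which prime vesicles at synapses and granules in leukocytes, the ratio was 107 and 110.1 in brain and 0.00511 and 0.00782 in spleen. For Dock3 and Dock2, activators of Rac in neurons and leukocytes, it was 66.7 and 57.1 in brain and 0.00204 and 2.29e-04 in spleen. Ptbp2 and Ptbp1, splicing repressors that replace each other as neurons mature, were closer in brain, with a ratio of 1.52 and 1.20, than in spleen, with 0.0384 and 0.0673. The BAF complex subunits Actl6b and Actl6a had a ratio of 3.11 and 2.50 in brain and 0.00407 and 0.00114 in spleen.

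The exceptions were Camk4, Elavl1, Eno1 and Aldoa. Camk4, taken as the leukocyte partner of Camk2b, was itself called higher in brain, at 196 and 206 CPM against 10.2 and 16.6 CPM. Elavl1, the widely expressed Hu protein, was at 129 and 120.3 CPM in brain and 107 and 103 CPM in spleen and was not called, and the glycolytic genes Eno1 and Aldoa were not called either, with differences of -0.33 ± 0.24 (SE) and -0.14 ± 0.20 (SE). Their neural partners Eno2 and Aldoc were at 132 and 169 CPM and at 128 and 198 CPM in brain and at 3.70 and 4.83 CPM and at 3.45 and 3.14 CPM in spleen. In 3 pairs the leading gene did not change between the organs: per kb Epb41 led Epb41l3 and Aldoa led Aldoc in all 4 libraries. Camk2b and Camk4 were nearly equal in brain, with ratios of 1.13 and 0.952, and Camk4 led in spleen.

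**Figure D5:**
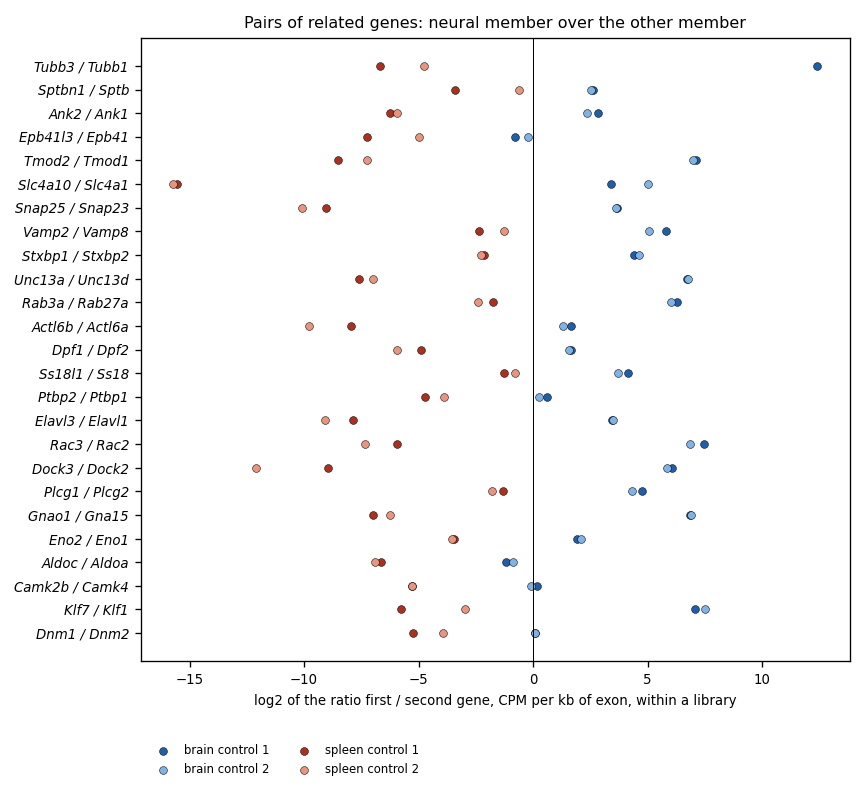
Log2 of the ratio of the neural to the other gene of paralogue pairs, in CPM per kb of exon within a library, 1 point per library (brain controls 1 and 2 blue, spleen controls 1 and 2 red). Brain points lie right of spleen points in each pair plotted. Tubb3 over Tubb1 has no point for brain control 2, where Tubb1 had no read.

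MicroRNA genes, chosen for description after their values were seen, gave a short view of the noncoding side. In these libraries of fragmented long RNA, reads at a microRNA gene come from its hairpin or the transcript that holds it, not from the mature microRNA. The mature forms of 5 of the loci are shown because each has a distinct seed (bases 2 to 8, in capitals). They are from RefSeq on GRCm38.p6, and they are all known for one of the sides: miR-9 and miR-128 in neural cells, miR-144 and miR-451a in red cells, and miR-142a in blood cells in general.
mmu-miR-9-5p, chr3:88215613-88215635, plus strand: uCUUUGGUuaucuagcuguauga
mmu-miR-128-3p, chr9:112118644-112118664, minus strand: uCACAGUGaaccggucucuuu
mmu-miR-144-3p, chr11:78073047-78073066, plus strand: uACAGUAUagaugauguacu
mmu-miR-451a, chr11:78073186-78073207, plus strand: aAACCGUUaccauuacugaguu
mmu-miR-142a-3p, chr11:87756903-87756925, plus strand: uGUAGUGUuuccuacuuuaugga

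Mir144 and Mir451a, 2 neighbouring hairpins on chromosome 11, were at 22.2 and 7.28 CPM and at 20.8 and 2.82 CPM in spleen controls 1 and 2 and had no read in either brain library. Both were higher in spleen control 1, as were the red cell genes. Mir142 was at 6.04 and 10.7 CPM in spleen and at 0.0533 and 0.0433 CPM in brain, and its adjusted p was 7.13e-04 by limma. Its locus lies within Mir142hg. Mir9-1 was at 2.88 and 2.94 CPM and Mir128-2, within Arpp21, at 0.907 and 1.13 CPM in brain, and neither had a read in spleen. Of 70 microRNA genes tested, 39 were called higher in brain and 17 higher in spleen. Over all genes 29.9% and 28.9% were called. Of the 39, 16 lie in the imprinted cluster from Meg3 to Mirg on chromosome 12, where all 16 tested were called higher in brain. These hairpins share 1 region and are not independent of each other.

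Of 14 housekeeping genes 1 was called higher in brain and 5 higher in spleen (median -0.61), and none in either direction without brain control 1 or brain control 2. These genes are often used as internal standards, and 5 of 14 is near the 28.9% of all genes called higher in spleen. Ywhaz, a 14-3-3 protein abundant in neurons, was at 454 and 412 CPM in brain and 161 and 244 CPM in spleen. Rplp0, a ribosomal protein, was at 181 and 123 CPM in brain and 684 and 321 CPM in spleen, and Polr2a, the large subunit of RNA polymerase II, at 129 and 147 CPM against 425 and 429 CPM. Gusb, a lysosomal enzyme, was at 13.98 and 16.5 CPM in brain and 66.9 and 99.2 CPM in spleen.

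Muscle genes lay on both sides. Over all genes 29.9% and 28.9% were called, and nothing is read from counts this small. Of 6 skeletal muscle genes tested 2 were called higher in brain, Acta1 at 3.15 and 4.68 CPM against 1.23 and 0.439 CPM in spleen and Actn2 at 9.87 and 8.66 CPM against 3.57 and 3.83 CPM, and 3 higher in spleen, Myh8 at 0.693 and 0.866 CPM in brain and 14.2 and 6.90 CPM in spleen, Mylpf at 0 and 0.260 CPM against 7.76 and 3.45 CPM, and Des. Of 5 heart genes tested, Ryr2, Myh7 (5.33 and 7.88 CPM in brain, 0.431 and 0.314 CPM in spleen) and Myh6 (1.01 and 2.17 CPM against 0.123 and 0.251 CPM) were called higher in brain, Mybpc3 (0 and 0.130 CPM against 0.801 and 1.95 CPM) was called higher in spleen and Tnni3 was not called. Without brain control 1 or brain control 2 no skeletal muscle gene was called higher in brain and 1 was called higher in spleen, and Mybpc3 was not called.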

How the data were processed

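Total RNA of homogenised organs was depleted of ribosomal RNA and sequenced as 50-base reads from a directional second-strand library, per the labels' protocols. The submitters' processing notes name HTSeq 0.6.1, edgeR and the build GRCm38. The aligner, the annotation release and the strand setting are unknown here, so antisense and overlapping genes are uncertain. The authors deposited 1 table per organ of scaled count signal: each value is a whole number of reads times a factor of its library, and at a tolerance of 0.05 of a read 100% of values in each library were whole. Dividing each column by its sum and multiplying by 1000000 gave CPM and removed the factor. Each table had 46078 identifiers, of which 45229 matched GENCODE mouse release 21. The other 849 were left out of the tests but count in the column sums and read totals. They held 0.108% to 0.179% of the reads in the brain and spleen control libraries.

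Genes with a mean of at least 1 CPM in either organ were fitted with limma 3.58.1 (R 4.3.3, trend) on log2(CPM + 0.5), 2 brain control against 2 spleen control libraries, with no covariate and Benjamini-Hochberg adjustment over all genes. The samples came from separate tissue preparations as far as the labels say, and p-values measure the spread between these libraries. On simulated counts for 18765 genes, 8 of 100 genes changed 2-fold and 87 of 100 changed 4-fold were recovered, with 9 false calls. The simulation gave both organs 1 common spread and changed far fewer genes than were called in the data. These figures therefore do not give the recovery or the false calls of this comparison. The members and lists were chosen with earlier results of these data known, so list counts are descriptions. The rule for named genes took Xist, the 4 markers, the paralogue pairs, the 10 largest differences in each direction, the 4 largest called without overlap in each list, members called against the majority of their list and all members of the macrophage, signal, muscle, liver and pancreas lists. Genes outside it are marked as named after their values were seen, and some genes it takes are not reported here. Depth sets the floor of 3 reads, and ratios over few reads carry an exact interval at 95% that covers counting error only, since PCR copies were not marked. For the 63 gene symbols with more than 1 identifier, the counts over all genes kept every identifier. Lists, named genes and pairs took 1 identifier per symbol, on an assembled chromosome first and then with the longer exons. Alternatives were edgeR 4.0.16 and DESeq2 1.42.0 on the recovered reads, other scalings, filters and pseudocounts, a block for replicate number, and each library left out. Tail-tip fibroblasts and liver were not used here.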

Additional observations from a re-analysis of the deposited data

How the results depend on the processing

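The count of genes called was 11039 and stayed within 1.5 times of it under all tools, scalings, filters and pseudocounts, from 8959 with a mean of at least 5 CPM to 12433 with the spread shared over 8 libraries. It ranged from 3423 to 12673 when 1 control library was left out, the count higher in brain from 2565 to 6559 and the count higher in spleen from 746 to 6226, with the low ends without a brain library. The count in mutants ranged from 8316 to 12476 when 1 mutant library was left out. The median of all genes moved from -0.08 to 0.04 with DESeq2 size factors, a shift of over 0.1, and the share of calls toward brain, 50.8%, to 54.8%. Over all tools, scalings, filters and pseudocounts that share ran from 48.9% to 54.8%, and from 47.5% to 78.2% when 1 control library was left out. With replicate number as a block, 11704 genes were called, 5852 in each direction. The numbers are not said to pair animals, and deviations of libraries with the same number had a correlation of 0.14 over 18765 genes.

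No gene named as called changed direction under an alternative. Genes that were not called changed sign as follows. Without spleen control 2 the differences were -0.51 for Add2, -0.33 for Gfap, 0.47 for Ltc4s, 0.37 for P2ry12, 0.28 for Tgfbr1 and 0.23 for Tnni3. Without spleen control 1 they were 0.29 for Alb, -0.0092 for Ccnd2, -0.72 for Ebf1 and -0.11 for Ngfr. Without brain control 1 they were 0.013 for Aldoa, 0.035 for Ltc4s, 0.033 for Mbp, 0.057 for P2ry12 and 0.091 for Tnni3. Without brain control 2 they were -0.13 for Ebf1, -0.031 for Gfap, -0.35 for Ngfr and 0.07 for Tgfbr1. Ltc4s was also at 0.038 with DESeq2 size factors and 0.021 with TMM scaling. With 1 control library left out at a time, the differences of these genes ran from -0.51 to 1.19 for Add2 and -5.10 to 0.29 for Alb. They ran from -0.29 to 0.013 for Aldoa, -0.0092 to 1.02 for Ccnd2, -0.72 to 1.03 for Ebf1 and -0.33 to 1.35 for Gfap. For Ltc4s the range was -0.55 to 0.47, for Mbp -1.20 to 0.033, for Ngfr -0.35 to 0.83 and for P2ry12 -0.87 to 0.37. For Tgfbr1 it was -0.60 to 0.28 and for Tnni3 -0.52 to 0.23. The causes were not tested. Depth limits genes near 1 CPM.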

Other observations

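Genes that span much of the genome leaned toward brain. Among protein-coding genes in 5 groups by the span from start to end of the gene, 46.7% of the 3006 longest (78 kb and more) were called higher in brain and 19.6% higher in spleen. In the 3 groups of shorter span 25.9% to 26.1% were called higher in brain and 31.2% to 32.5% higher in spleen. The median difference was 0.67 in the longest group and -0.23 in the shortest.

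Small nucleolar RNA genes, which guide modification of ribosomal RNA, were called higher in spleen in 51% of 100 cases and higher in brain in 20%, against 28.9% and 29.9% of all genes. Of 1195 processed pseudogenes 29.6% were called higher in spleen, a share near that of all genes, and 11.1% higher in brain. Of 373 intergenic long noncoding RNA genes 38.3% were called higher in brain, and 26.3% higher in spleen, which is near the share of all genes. Both small nucleolar RNAs and pseudogenes share reads with host genes or near-identical copies.

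The 664 X-linked genes tested were called higher in brain in 36.1% and higher in spleen in 25.5% of cases, with a median difference of 0.08, against 29.7%, 29.1% and -0.09 for autosomal genes. The lean is not particular to the X chromosome: the medians were 0.16 for chromosome 18 and 0.14 for chromosome 12, with 37.9% and 36.4% called higher in brain.

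The 6 genes called in one direction in controls and in the other in mutants were Klf15, Entpd3, Ddit4, Rhobtb3, Ptpru and Cdkn1c. All 6 were called higher in brain in controls and higher in spleen in mutants. Klf15 was at 3.08 and 3.20 CPM in the spleen controls and at 66.4 and 48.9 CPM in the spleen mutants, while in brain it was at 17.98 and 22.996 CPM in controls and 33.6 and 30.5 CPM in mutants. Ddit4, a stress-induced inhibitor of mTOR signalling, was at 10.2 and 24.2 CPM in the spleen controls and 95.7 and 113 CPM in the spleen mutants, against 36.9 and 44.4 CPM in brain controls. The interaction of organ and genotype did not pass the limma test for any of the 6, with adjusted p of 0.139 for Klf15 and 0.479 for Ddit4.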
